A study of Mus musculus with 3 samples.

Results

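H3K36me3 was described over 9 genes that mark fetal developmental timing and growth: Lin28a, Lin28b, Hmga2, Igf2bp1, Igf2bp2, Igf2bp3, Sall4, Myc and Mycn. Their rows were found by gene identifier, all 9 of them among the 24318 rows with an identifier. The mark was profiled by CUT&Tag, in which an antibody directs a transposase to cut and tag the DNA beside the mark. The libraries came from pancreatic epithelial cells of wild-type C57BL/6 mouse embryos, sorted on EpCAM, and 1 library was made per stage, for E11.5, E13.5 and, last, E15.5. No replicate, input or no-antibody library was analysed here, so every stage difference below is a size in these libraries, with no test and no spread between embryos.

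H3K36me3 is laid down in the wake of elongating RNA polymerase II, mainly by the enzyme SETD2, and is known as a mark of the bodies of transcribed genes. LIN28A and LIN28B are RNA-binding proteins of early embryonic and fetal cells that block the maturation of let-7 microRNAs. Mature let-7 in turn represses mRNAs that include Lin28b, Hmga2, the Igf2bp genes, Myc and Mycn, so that falling LIN28 and rising let-7 form a textbook switch from fetal to later growth programmes.

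The mature let-7 family is shown for its part in the switch described above and for the seed its members share. None of the 9 genes was searched for let-7 sites. RefSeq (GRCm38.p6) lists the following 9 members, each 22 bases long and written 5′ to 3′ with bases 2 to 8, the seed, in capitals. All 9 carry 1 seed. let-7 itself was not measured in these libraries.
mmu-let-7a-5p: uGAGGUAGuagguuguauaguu
mmu-let-7b-5p: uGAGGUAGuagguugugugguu
mmu-let-7c-5p: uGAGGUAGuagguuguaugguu
mmu-let-7d-5p: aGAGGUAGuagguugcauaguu
mmu-let-7e-5p: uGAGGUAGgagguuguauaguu
mmu-let-7f-5p: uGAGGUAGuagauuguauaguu
mmu-let-7g-5p: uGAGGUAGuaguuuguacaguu
mmu-let-7i-5p: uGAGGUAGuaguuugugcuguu
mmu-miR-98-5p: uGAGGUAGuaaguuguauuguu

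Each deposited file has 3 columns of signal, headed GB, PR and SE, without a spelled-out meaning. Values are given as signal per kb, the deposited mean coverage times 1000. PR behaves as a mean over 6000 positions and SE as a mean over 12000, and the values also gave back the number of positions in each GB window. For 5 of the 9 genes this GB length equals the length of the whole gene in RefSeq: 115202 positions for Hmga2 (ENSMUSG00000056758, chr10:120361268-120476469), 104291 for Igf2bp2 (ENSMUSG00000033581, chr16:22059009-22163299), 18870 for Sall4 (ENSMUSG00000027547, chr2:168748332-168767201), 5021 for Myc (ENSMUSG00000022346, chr15:61985341-61990361) and 5744 for Mycn (ENSMUSG00000037169, chr12:12936093-12941836). For 2 more it equals the stretch from the RefSeq promoter's start site to the gene's end, 15487 positions for Lin28a (ENSMUSG00000050966, chr4:134003330-134019196) and 129737 for Igf2bp3 (ENSMUSG00000029814, chr6:49085218-49215469). Igf2bp1 (ENSMUSG00000013415, chr11:95957163-96005944) came out 1 position shorter than its gene, at 48781. Lin28b (ENSMUSG00000063804, chr10:45376617-45486314) came out at 93583, or 2 positions shorter than the stretch from its promoter. That is 16115 positions shorter than its whole RefSeq gene of 109698, and this promoter lies inside the gene. Coordinates are those of GRCm38.p6. GB is therefore read as the gene body, in Lin28b without 16115 positions of its RefSeq gene. These lengths also check the gene identifiers against the gene names.

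The windows overlap. Among rows with a GB length of 200 to 3000 positions, the GB sum lay within the PR sum in 98.7 to 99.2% of rows, depending on the library. For longer bodies of up to 6000 positions it lay within the SE sum in 99.1 to 99.3%. PR thus behaves as a window that reaches about 3000 positions into the gene, and SE as a window that adds about as many. These sums cannot tell whether SE adds them at the other end of the gene or next to PR. Nor do the values say which end PR covers, so PR is not called a promoter here. The GB windows of Myc and Mycn are short enough to lie almost wholly inside SE, and their 3 columns are not separate measurements.

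Coverage was sparse. Window sums are whole multiples of a smallest step in each library. If each covered position adds at least 1 step, the number of steps bounds how many positions were covered at all. By that bound at most 8.61% of the Hmga2 body was covered at E15.5, and at most 1.496% of the Lin28b body at E11.5. In PR the Igf2bp1 window held 22 steps at E11.5, or at most 0.367% of its 6000 positions. The labels give an average read number for the samples and not that of each file, so no counting interval was computed.

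Over all identified rows, median GB was 4.32, 4.21 and 3.71 per kb in stage order, and median PR was 3.94, 3.68 and 5.59 per kb. PR was at 0 in 7.59, 11.9 and 22.1% of rows in the same order. These 2 features of the E15.5 library, a higher PR median and more rows at 0, move with the PR differences of E15.5 against either earlier stage, and their part in those differences was not tested. The sort on EpCAM could not be checked against epithelial or other markers, because no table used here pairs the remaining identifiers with gene names.

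Over the gene body, the 9 genes lay mostly above the median of all rows. Their median GB percentile was 65.3, 67.2 and 74.2 in stage order, with 6, 8 and 7 of the 9 above the median row. By mean percentile over the libraries Myc, Mycn and Igf2bp1 led, and Lin28b was low at every stage. The lowest gene was Lin28b at E11.5 and E13.5, at the percentiles 31.2 and 31.5, and Sall4 at E15.5, at 31.4. Each gene was also ranked among rows with a recovered GB length within 1.5 times its own. There the median percentile was 75.7, 66.5 and 81.2.

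**Figure D1:**
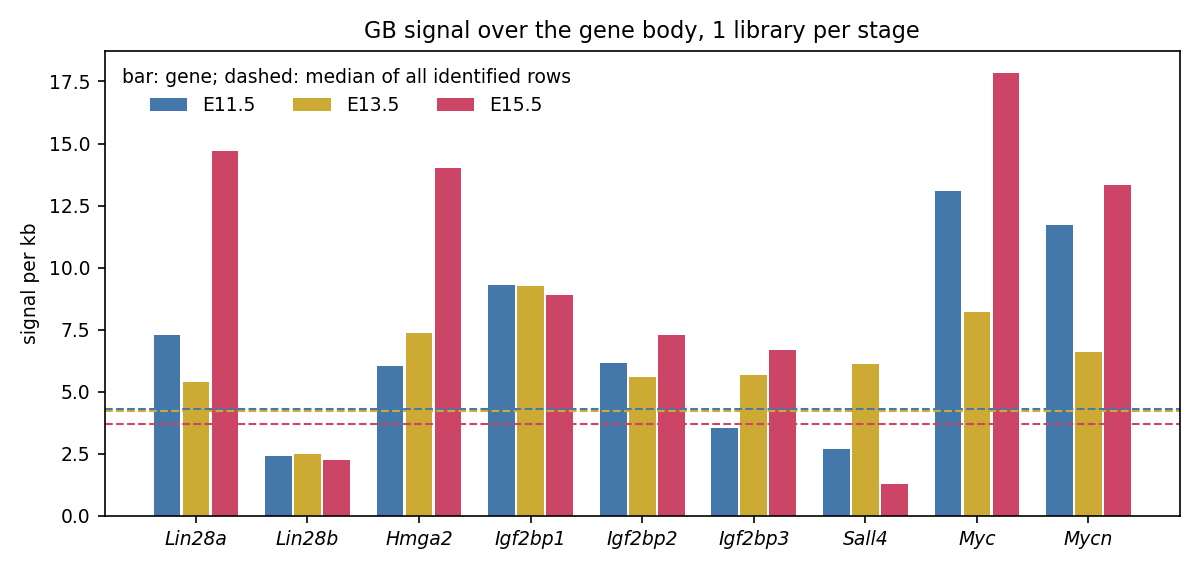
GB signal per kb (bars) of the 9 genes, coloured by stage, 1 library each, with the median of the 24318 identified rows of each library as a dashed line. Lin28b stays below all 3 medians, Hmga2 is highest at E15.5, and Sall4 is above the median row at E13.5 alone.

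The LIN28 pair differed over the gene body. Lin28a had GB of 7.26, 5.38 and 14.7 per kb in stage order, which are the percentiles 72.6, 61.3 and 85.0. Lin28b had 2.42, 2.50 and 2.23 per kb, or the percentiles 31.2, 31.5 and 38.9. Lin28a was above the median row in every library and Lin28b below it in every library. Among the 2352 rows of like length Lin28b ranked still lower, at the percentiles 13.0, 12.4 and 21.5. Lin28a also ranked lower among its 4653 such rows, at 61.2, 48.7 and 81.2, and so below their middle at E13.5.

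The LIN28 pair had its highest SE signal at E11.5. SE of Lin28a was 11.2, 4.10 and 0.950 per kb in stage order, the percentiles 89.5, 49.3 and 24.96. SE of Lin28b was 9.01, 0 and 2.63 per kb, the percentiles 82.0, 1.44 and 34.8. For both genes E11.5 was the highest stage in SE and E15.5 was lower than E11.5. PR of Lin28a was 4.59 and 4.86 per kb at the earlier stages and was listed at 0 at E15.5, and PR of Lin28b was 9.50, 0 and 5.27 per kb. The other 6000 positions of SE, outside PR, carried most of the Lin28a signal at E11.5, with 17.9, 3.35 and 1.90 per kb in stage order. Lin28b had 8.53 per kb there at E11.5 and was listed at 0 at both later stages. For Lin28a GB was higher and SE lower at E15.5 than at E11.5, with a log2 ratio of 0.93 in GB and -2.65 in SE. The GB ratio ranged from 0.56 to 1.13 under the 4 scalings tried. The SE window of Lin28a held 832, 294 and 70 steps in stage order, and its PR window 170, 174 and 0. SE overlaps the body, so GB and SE are not separate measurements. All log2 ratios were taken after adding 1 per kb.

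Hmga2, which encodes an AT-hook chromatin protein that promotes fetal growth, ranked near the top of gene bodies of its length at E15.5. Its GB was 6.05, 7.36 and 14.0 per kb in stage order, with the percentiles 64.6, 75.6 and 84.1. Each stage was higher than the one before. Among the 2007 rows of like length the percentiles were 75.7, 88.9 and 98.0. The long window held 4304, 5066 and 9920 steps, which cover at most 3.74, 4.40 and 8.61% of its positions. At E15.5 against E11.5 the log2 ratio was 1.09, above that of 97.1% of like-length rows and 75.2% of the 16048 rows tested. It remained positive under each of the 4 scalings tried, from 0.79 to 1.29. PR of Hmga2 was low or absent earlier and near the middle of all rows later, with 2.75, 0 and 10.2 per kb and the percentiles 41.4, 5.94 and 60.4. SE of Hmga2 was 1.42, 3.795 and 5.78 per kb, below the middle of all rows in each library, at the percentiles 18.7, 45.9 and 49.4. Its rank in SE was lower than its rank in GB in every library.

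The Igf2bp genes encode RNA-binding proteins of fetal tissues and tumours that bind mRNAs of growth genes, Myc and Igf2 among them. Over the gene body none of the 3 differed 2-fold between any pair of stages. Nor did most tested bodies of at least 40000 positions, a length that all 3 genes reach. At E13.5, 5.04% of these long bodies were 2-fold higher than at E11.5 and 5.35% were lower. At E15.5 the shares were 8.51% and 13.1% relative to E13.5, with 8.71% and 12.5% relative to E11.5. Igf2bp1 had GB of 9.30, 9.26 and 8.91 per kb in stage order. Igf2bp2 had 6.15, 5.59 and 7.27 per kb. The widest relative range was in Igf2bp3, at 3.52, 5.67 and 6.67 per kb. Igf2bp1 had the highest GB of the family at every stage, at the percentiles 82.0, 83.9 and 74.2. The difference between stages in Igf2bp1 was small enough to change sign with the scaling, with log2 ratios from -0.34 to 0.14 for E15.5 against E11.5. Igf2bp3 was higher at E15.5 than at E11.5 under all 4 scalings, by 0.68 to 0.95 on the log2 scale. As deposited, its log2 ratio of 0.76 stood at the percentile 93.1 of the 1806 rows of like length.

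In PR the stages differed far more, as they did in long gene bodies at large. Among tested bodies of at least 40000 positions, PR was 2-fold higher at E15.5 than at E11.5 in 54.1% and lower in 24.4%. Against E13.5 the shares were 54.8% and 23.8%. PR of Igf2bp1 was 0.593, 1.37 and 39.5 per kb in stage order. PR of Igf2bp2 was 2.16, 1.62 and 25.4 per kb, and PR of Igf2bp3 was 0.863, 3.24 and 29.3 per kb. All 3 lay below the middle of all rows at E11.5 and E13.5, between the percentiles 20.2 and 46.2, and all 3 lay in the upper part at E15.5, between 84.9 and 93.6. These 3 had the highest PR of the 9 genes at E15.5 and the lowest 3 at E11.5. In steps, the Igf2bp1 window held 22, 49 and 1454, the Igf2bp2 window 80, 58 and 936, and the Igf2bp3 window 32, 116 and 1079. The low stages rest on so few covered positions that the log2 ratios are better read than the folds. For E15.5 against E11.5 they were 4.67 in Igf2bp1, 3.06 in Igf2bp2 and 4.02 in Igf2bp3, above 98.0, 84.6 and 94.8% of the 17716 rows tested. Under the 4 scalings they ranged from 4.12 to 4.83, from 2.51 to 3.25 and from 3.55 to 4.195. For E15.5 against E13.5 the log2 ratios were 4.10 in Igf2bp1, 3.33 in Igf2bp2 and 2.84 in Igf2bp3. SE, which contains PR, was also highest at E15.5 in all 3 genes, at 24.1 per kb in Igf2bp1, 13.7 in Igf2bp2 and 27.6 in Igf2bp3.

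Dividing PR by GB in the same library cancels any single scale factor. At E15.5 it was 4.43 in Igf2bp1, 3.496 in Igf2bp2 and 4.39 in Igf2bp3, where the median over 6434 gene bodies of at least 40000 positions was 1.43. At E11.5 it was 0.0638, 0.351 and 0.245 in the same order of genes, where the median over 6498 such bodies was 0.756. Each of the 3 genes was below the median of long bodies at E11.5 and above it at E15.5. Outside PR, the rest of the SE window was less uniform. Igf2bp3 had 1.997, 6.81 and 26.0 per kb there and Igf2bp1 2.43, 0.977 and 8.64 per kb, both highest at E15.5, whereas Igf2bp2 had 1.03, 10.8 and 2.06 per kb with its highest value at E13.5.

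**Figure D2:**
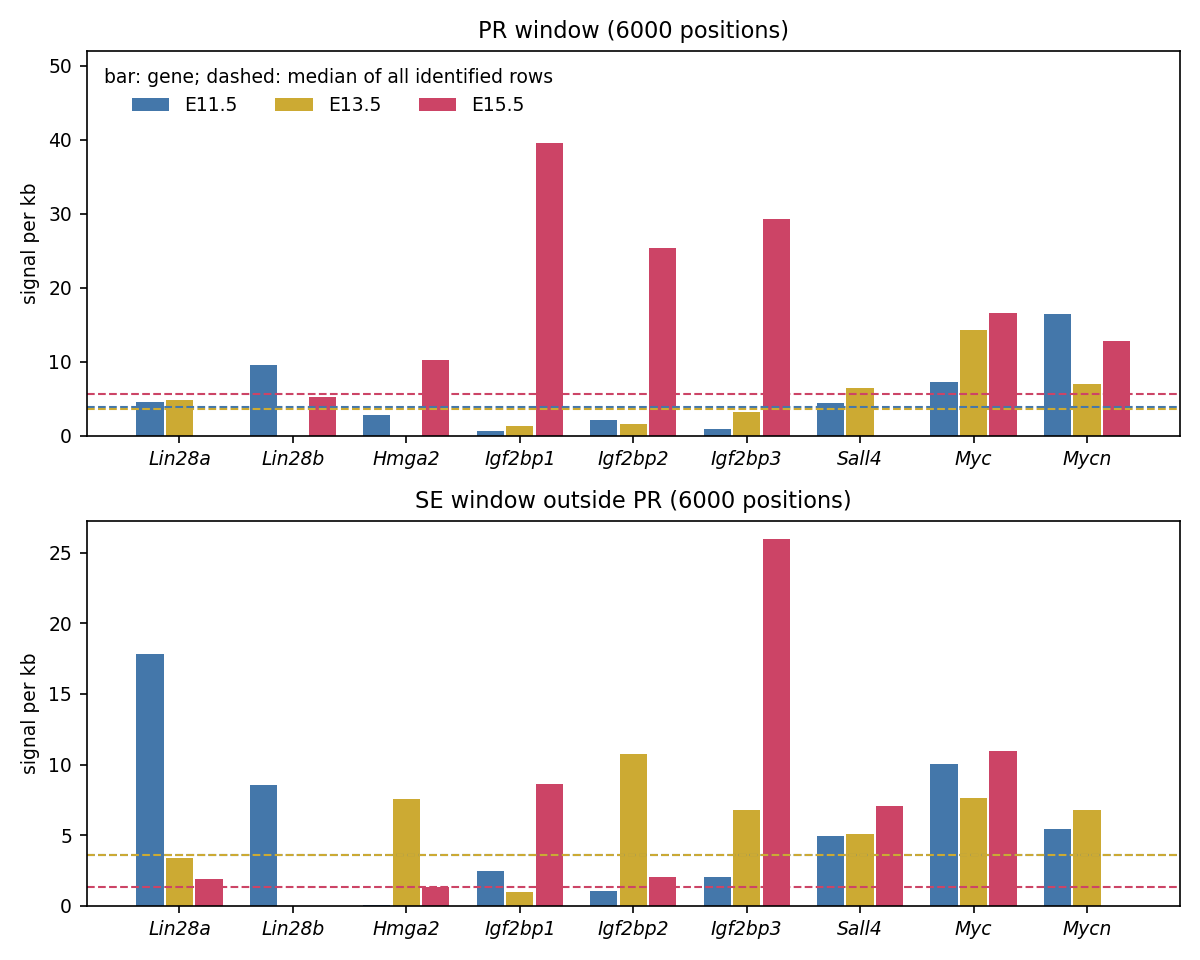
Signal per kb (bars) of the 9 genes in the PR window (top) and in the rest of SE (bottom), coloured by stage, with the median of identified rows of each library as dashed lines. The 3 Igf2bp genes have the highest PR at E15.5, from 25.4 to 39.5 per kb, while Lin28a and Sall4 are at 0 there. In the bottom panel the E11.5 and E13.5 medians, 3.56 and 3.57 per kb, lie on top of each other.

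RefSeq promoters, from 250 bases before to 50 after the start site, were available for 6 of the 9 genes. They were lacking for Sall4, Myc and Igf2bp1, the gene with the highest PR at E15.5. Whether PR covers the promoter end is not known. The promoters of Igf2bp2 and Igf2bp3 are shown as members whose PR was high at E15.5, and those of Lin28a and Lin28b as members whose PR was not. The Lin28b promoter lies inside its RefSeq gene, at a start site within it. Each is from the minus strand of GRCm38.p6 and is written 5′ to 3′. Capitals mark CACGTG, the E-box bound by MYC with its partner MAX, which reads the same on both strands.
Igf2bp2, chr16:22163250-22163549: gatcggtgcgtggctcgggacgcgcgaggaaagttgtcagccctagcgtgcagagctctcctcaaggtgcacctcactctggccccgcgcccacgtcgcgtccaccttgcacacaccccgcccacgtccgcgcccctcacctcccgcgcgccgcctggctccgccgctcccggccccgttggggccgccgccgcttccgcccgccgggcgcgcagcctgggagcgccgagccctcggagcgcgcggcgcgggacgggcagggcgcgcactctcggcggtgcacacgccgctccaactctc
Igf2bp3, chr6:49214905-49215204: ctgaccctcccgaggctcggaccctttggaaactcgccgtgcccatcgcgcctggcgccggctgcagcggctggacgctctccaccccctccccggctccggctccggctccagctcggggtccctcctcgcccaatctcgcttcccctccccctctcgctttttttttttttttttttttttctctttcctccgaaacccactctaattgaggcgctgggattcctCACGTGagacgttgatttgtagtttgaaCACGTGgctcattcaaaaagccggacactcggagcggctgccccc
Lin28a, chr4:134018767-134019066: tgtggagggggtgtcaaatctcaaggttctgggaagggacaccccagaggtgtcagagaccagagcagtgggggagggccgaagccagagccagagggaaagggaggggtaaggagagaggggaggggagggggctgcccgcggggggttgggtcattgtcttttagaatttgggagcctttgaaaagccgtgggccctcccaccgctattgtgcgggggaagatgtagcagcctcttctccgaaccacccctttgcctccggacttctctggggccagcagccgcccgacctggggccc
Lin28b, chr10:45470152-45470451: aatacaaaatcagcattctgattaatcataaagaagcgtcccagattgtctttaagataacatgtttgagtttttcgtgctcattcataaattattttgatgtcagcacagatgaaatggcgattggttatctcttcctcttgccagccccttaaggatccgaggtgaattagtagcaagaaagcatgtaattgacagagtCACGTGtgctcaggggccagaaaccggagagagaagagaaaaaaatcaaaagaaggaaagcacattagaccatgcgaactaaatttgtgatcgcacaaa

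The E-box occurs 2 times in the Igf2bp3 promoter, once before and once after the start site, and 1 time in that of Lin28b. It was not found in the windows of Igf2bp2, Lin28a, Hmga2 or Mycn. Of 32851 RefSeq promoters of the same length 7.15% hold it, and 0.594% hold it at least 2 times. The Igf2bp2 promoter holds 47 CG pairs and the Igf2bp3 promoter 25, at the percentiles 98.7 and 82.4 of all promoters. Lin28a holds 10 and Lin28b 8, at the percentiles 57.6 and 52.8, where the median is 7. Hmga2, whose PR was also 2-fold higher at E15.5 than at either earlier stage, holds 12, and Mycn holds 14. These matches describe the letters of the windows. Whether MYC or MYCN binds there was not measured in these libraries.

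Sall4 encodes a zinc-finger transcription factor of pluripotent and fetal progenitor cells. Its GB was 2.69, 6.10 and 1.26 per kb in stage order, the percentiles 33.7, 67.2 and 31.4. Only the E13.5 library put it above the median row. PR of Sall4 was 4.43, 6.50 and 0 per kb, from 164, 233 and 0 steps. Body and PR were both highest at E13.5 and both lowest at E15.5, but PR overlaps the body, so they are not separate measurements. SE of Sall4 was 4.70, 5.78 and 3.53 per kb, in the same order. The rest of SE went otherwise, with 4.97, 5.05 and 7.06 per kb and its highest level at E15.5, at the percentile 69.2. The GB window held 313, 688 and 146 steps, and the low values thus cover at most 1.66% of the body at E11.5 and 0.774% at E15.5. For E15.5 against E13.5 the GB log2 ratio was -1.65, and -1.28 to -1.73 under the 4 scalings.

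Myc and Mycn encode basic helix-loop-helix transcription factors that pair with MAX and drive growth and proliferation. Their short genes had the highest GB of the set at E11.5. Myc had 13.1, 8.20 and 17.8 per kb in stage order and Mycn 11.7, 6.59 and 13.3 per kb. Both were lowest at E13.5. Among rows of like length they stood less high, Myc at the percentiles 81.0, 66.5 and 70.1 and Mycn at 77.5, 57.3 and 64.5. For E15.5 against E11.5 their GB log2 ratios were 0.42 and 0.17, and both turned negative under quantile normalization, at -0.20 and -0.32.

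PR of the MYC pair differed in order. Myc had PR of 7.29, 14.2 and 16.6 per kb and Mycn 16.5, 6.98 and 12.8 per kb. By percentile Myc was highest at E13.5, at 94.0, with 70.1 at E11.5 and 73.8 at E15.5, and Mycn was highest at E11.5, at 94.6. For E15.5 against E13.5 the PR log2 ratio was 0.21 in Myc and 0.79 in Mycn, and quantile normalization turned both, to -1.07 and -0.24. In Mycn at E15.5 the sums over GB, PR and SE were all 76.6, so that all signal of these windows lay where they overlap. SE of Myc was 8.66, 10.9 and 13.8 per kb and SE of Mycn 11.0, 6.86 and 6.38 per kb. Myc had its highest SE level at E15.5, but by percentile, at 80.5, 91.3 and 76.3, that stage was its lowest. Mycn had its highest SE at E11.5 by level and by percentile.

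**Figure D3:**
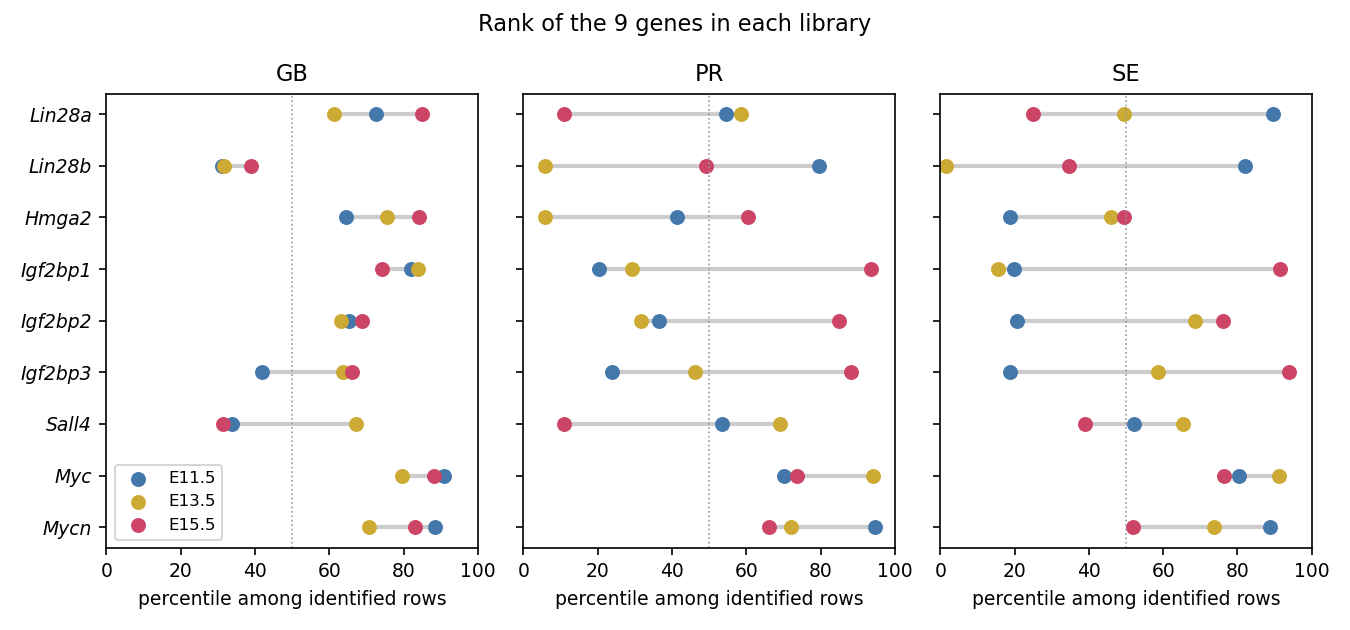
Percentile of each of the 9 genes among identified rows in GB, PR and SE (x axis, 0 to 100), with 1 point per library coloured by stage and a grey line from the lowest to the highest. GB percentiles lie close together for Lin28b and Igf2bp2, while PR of the Igf2bp genes lies at 46.2 or below at both earlier stages and at 84.9 or above at E15.5.

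The first interval was read from E13.5 against E11.5. A gene was counted as 2-fold apart where the log2 ratio reached 1 in either direction and the higher value reached the median of its column, 4.13 per kb for GB, 4.07 for PR and 4.60 for SE. None of the 8 genes above the GB floor was 2-fold apart, where 17.2% of all rows tested were higher and 19.4% lower. Among bodies of at least 40000 positions, which include Hmga2 and the Igf2bp genes, the shares were only 5.04% and 5.35%. The largest GB ratios were 0.95 in Sall4 and -0.75 in Mycn. Sall4 lay just under the limit, and it was 2-fold higher under quantile normalization, at 1.17, and with a pseudocount of 0.1 per kb. In PR, Lin28b and Mycn were lower at E13.5, 2 of the 5 genes above the floor, and no gene was higher. The background was 28.8% higher and 32.8% lower. Under quantile normalization Myc was 2-fold higher too, at 1.22. In SE, Igf2bp2 and Igf2bp3 were higher and Lin28a and Lin28b lower, of 7 genes above the floor, where 19.9% of rows were higher and 24.8% lower.

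The second interval, E15.5 against E13.5, shares the E13.5 library with the first. In GB, Lin28a and Myc were higher and Sall4 lower, of 8 genes above the floor, against 27.6% of rows higher and 22.1% lower. Among bodies of at least 40000 positions, which include none of these named genes, the shares were 8.51% and 13.1%. Lin28a had 14.7 per kb at E15.5, against 5.38 at E13.5, and Myc had 17.8 per kb at E15.5, against 8.20 at E13.5. Under quantile normalization Lin28a, at 0.94, and Myc, at 0.47, were no longer 2-fold apart. Hmga2, at a log2 ratio of 0.85, and Mycn, at 0.92, lay just under the limit. In PR all 9 genes were above the floor, and 5 were higher, namely Lin28b, Hmga2 and the 3 Igf2bp genes. Lin28a and Sall4 were lower. Of all rows tested 52.2% were higher and 24.7% lower in PR, so a count of 5 of 9 is close to the background. Under quantile normalization 50.1% of all PR calls were higher, where the deposited values gave 67.9%, and 4 of the 9 genes were higher and 3 lower, Myc being lower at -1.07. In SE the 3 Igf2bp genes were higher and none was lower, of 7, against 45.7% and 17.9% of rows. Of all SE calls 71.9% were higher, and 50.0% after quantile normalization, which left 2 of the 9 genes higher.

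The whole span, E15.5 against E11.5, shares a library with each interval. In GB, Hmga2 was the 1 gene of 7 above the floor that was 2-fold higher, and none was lower, against 26.5% and 22.8% of rows. Under quantile normalization Hmga2 was no longer 2-fold apart, at a log2 ratio of 0.79. Among bodies of at least 40000 positions, which include Hmga2, Lin28b and the Igf2bp genes, the share of rows 2-fold higher was 8.71% and 2-fold lower 12.5%. In PR, 5 of 9 genes were higher, namely Hmga2, Myc and the 3 Igf2bp genes, and Lin28a and Sall4 were lower. The background was 50.0% higher and 26.0% lower, again close to the count. Of all PR calls 65.8% were higher, and 50.1% after quantile normalization. That scaling gave 4 of the 9 genes higher and 4 lower: Myc, at 0.14, was no longer 2-fold apart, and Lin28b, at -1.41, and Mycn, at -1.43, were lower. In SE, Hmga2 and the 3 Igf2bp genes were higher and Lin28a and Lin28b lower, of 9, against 42.7% and 19.7% of rows. Of all SE calls 68.4% were higher, and 50.4% after quantile normalization, which gave 3 of the 9 genes higher and 3 lower. The median log2 ratio of the 9 genes was 1.09 in PR and 0.61 in SE, where the rows above the floor had medians of 1.001 and 0.71. In GB the median was 0.21 for the 9 genes, 7 of them above the floor, where rows above the floor had 0.14.

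**Figure D4:**
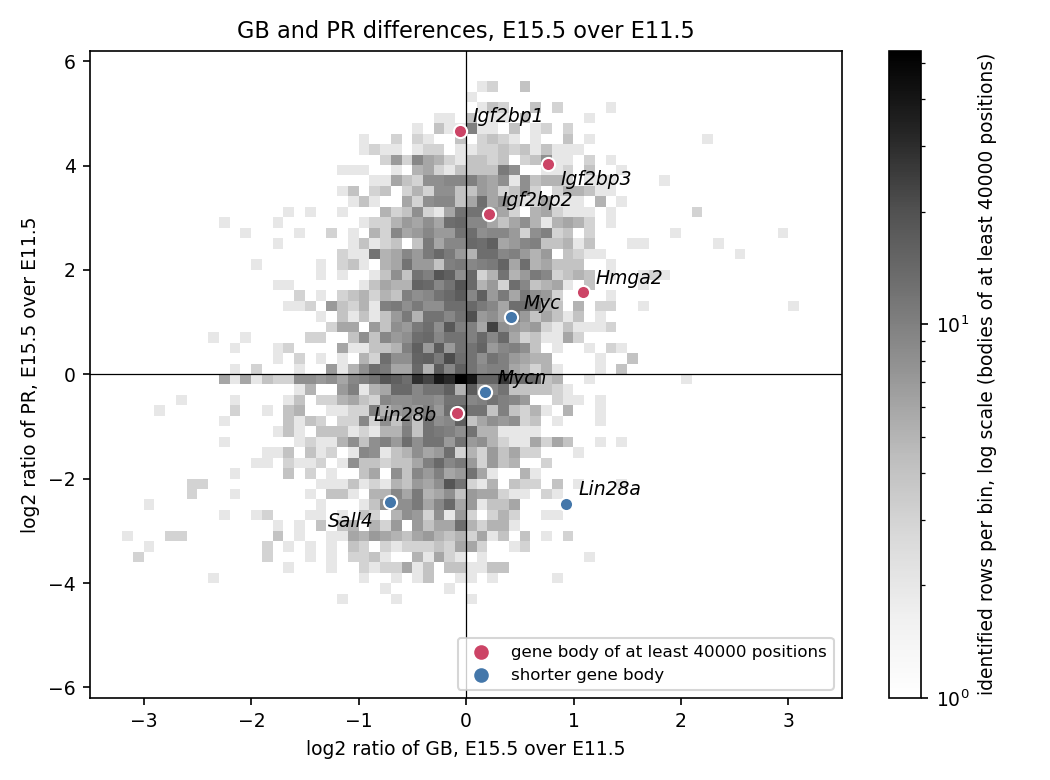
Log2 ratio of E15.5 over E11.5 in GB (x axis) and PR (y axis) for the 9 genes, with gene bodies of at least 40000 positions in red and shorter ones in blue. Grey bins count the 6451 of 6516 identified rows of that length that fall inside the axes. The Igf2bp genes lie high in PR at GB ratios from -0.05 to 0.76, Hmga2 lies farthest right at 1.09, and Lin28a and Sall4 lie below -2 in PR.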

How the data were processed

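CUT&Tag for H3K36me3 was measured in 3 libraries, 1 per stage. Bowtie2 2.4.2 and mm10 are listed, per the submitters' processing notes. Filters, counting and scaling are not given in the sources used here. As coverage signal, the authors deposited means in 3 columns over 25493 rows, per the file headers. Rows without an identifier, 1175 or 4.61%, stayed out. No deposited identifier was found in the RefSeq table (0 matched), so the lists of related genes and cell type markers could not be used. Gene names follow the list of members.

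With Python 3.11.15 and NumPy 2.4.6, the smallest step of each library was found from PR. GB lengths were recovered where at least 2 libraries were above 0, for 20544 identified rows. Sets of like length therefore hold no row at 0 in 2 libraries. The search and the 2-fold count were run on simulated data with an assumed fragment size and no variation between embryos. Such data cannot give the rate of false calls in these libraries. Percentiles are mid-ranks. Log2 ratios used a pseudocount of 0.001 in deposited units, that is 1 per kb. No test was possible with 1 library per stage. All 9 members are named, and the members, lists and settings were chosen with earlier results of these data known.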

Additional observations from a re-analysis of the deposited data

How the results depend on the processing

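Settings were varied over 18 results, which gave 87 values. Of these, 68 moved by 1.5 times at most, among them all of the median percentiles. A count that stayed could still split otherwise, as under quantile normalization. Dividing by the median GB of rows above 0 was chosen after seeing the data. The other values, all counts of the 9 genes 2-fold apart in either direction, were as follows.

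For GB the main counts were 0 for E13.5 against E11.5, 3 for E15.5 against E13.5 and 1 for E15.5 against E11.5. A pseudocount of 0.0001 gave 1 for the first pair and 2 for the last, and 0.005 gave 0 for both pairs with E15.5. Dividing by the median GB gave 5 and 2 for the pairs with E15.5. Quantile normalization gave 1, 1 and 0. A 1.5-fold threshold gave 3, 5 and 3. For PR the main counts were 2, 7 and 7. A pseudocount of 0.005 gave 1 for the first pair and 3 for the last, no floor gave 4 for the first, and a floor 2 times higher gave 4 for E15.5 against E13.5. For SE the main counts were 4, 3 and 6. The pseudocount of 0.005 and the floor 2 times higher each gave 1 for the first pair, and no floor gave 5 for the second. Larger pseudocounts shrink ratios and a higher floor leaves fewer genes, by construction, and otherwise the cause was not tested.

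Quantile normalization moved the median log2 PR ratio of all rows for E15.5 against E13.5 to 0.051, where the deposited values gave 0.37, and dividing by the median GB moved it to 0.52, or to 0.29 with the median over rows above 0. The unknown depth of each file and the lack of replicates limit all stage differences. No paired analysis was possible because the stages had no replicates to pair.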

Other observations

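Rows with GB percentiles like those of Lin28b and Hmga2 at all 3 stages were sought among rows of like length. Within 10 percentile points of Lin28b lay 134 of 2351 rows, the nearest at 1.74 points. Within 10 points of Hmga2 lay 17 of 2006 rows, the nearest at 3.86 points. The distance is Euclidean over the 3 libraries. No table used here pairs these rows with gene names, so none is named.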
